A study of Chelidonium majus with 4 samples.

Results

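The 11 contigs described here are those that the study of greater celandine (*Chelidonium majus*) labels *NCS*, norcoclaurine synthase, and that were listed by identifier for this description, out of 232701 contigs in the deposited table. They were found by their identifiers alone, and all 11 have a row. RNA was sequenced from root (2 libraries, root 2 and root 4) and from leaf (2 libraries, leaf 3 and leaf 4) of greenhouse plants that carry 1 voucher number, a high producer of chelidonine, with no treatment named for either tissue. The paper calls the libraries of a tissue biological replicates. Neither it nor the labels say which plant a library came from, so the tests are read as measuring the spread between these libraries. The contigs carry no gene names in the table, so the tissue labels could not be set against leaf or root markers, and the name *NCS* rests on the study's labelling.

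Norcoclaurine synthase joins dopamine to 4-hydroxyphenylacetaldehyde and so makes (S)-norcoclaurine, the scaffold from which benzylisoquinoline alkaloids such as sanguinarine, chelidonine and berberine are built. In opium poppy and meadow rue the enzyme belongs to a family of pathogenesis-related proteins, and plants of the poppy family often carry several copies of its gene. Around it in the pathway stand tyrosine/dopa decarboxylase (*TYDC*), which makes dopamine, and then coclaurine N-methyltransferase (*CNMT*) and the hydroxylase *CYP80B1* on the way to (S)-reticuline, the branch point of the later pathways.

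The libraries held from 15281682 to 19781065 estimated counts, so that before any scaling 1 count stood for 0.0506 to 0.0654 CPM, counts per 1000000 counts. Levels are given as CPM scaled by TMM factors and are not divided by contig length, which the table does not hold, so in these results a level is compared between libraries and not between contigs. The root libraries were less alike than the leaf libraries. Over the tested contigs with counts in both, the log2 ratio of the 2 libraries had a standard deviation of 1.05 in root and 0.569 in leaf. A block of contigs numbered c1 to c33 held 22.1% of all counts in root 2 and 2.41% in root 4, against 8.02% in leaf 3 and 0.323% in leaf 4. The TMM factors were 0.729 in root 2 and 1.23 in root 4, against 1.03 in leaf 3 and 1.09 in leaf 4.

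By their identifiers the 11 contigs belong to 7 assembly components, that is groups of contigs assembled together. Component TR3282 holds 3 of them and TR8975 holds 3, while TR3314, TR9221, TR7626, TR1174 and TR7969 each consist of 1 contig. Contigs of 1 component are not separate observations, since the RSEM estimate shares out reads that fit more than 1 similar contig. In leaf the contigs fell into 2 kinds. The 3 contigs of TR3282 had at most 1 count in a leaf library, and the other 8 had between 9 and 157 counts in every leaf library.

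The TR3282 contigs were well counted in root and close to absent from the leaf counts. Contig TR32821|c129120_g1_i1 was counted 794 times in root 2 and 961 times in root 4, against 0 times in leaf 3 and once in leaf 4. In normalized CPM this was 56.4 and 54.2 in root. Contig TR32822|c129121_g1_i1 was counted 241 and 258 times in root, against 1 and 0 times in leaf, and stood at 17.1 and 14.5 normalized CPM in root. Contig TR32823|c129122_g1_i1 was counted 205 and 214 times in root, and no read was assigned to it in leaf, with 14.6 and 12.1 normalized CPM in root. No leaf value came near a root value in any of the 3 contigs, and both root libraries gave close levels. In RNA of whole organs, fewer cells with a transcript and less of it per cell cannot be told apart. With 3 counts over both leaf libraries in place of 0, TR32823|c129122_g1_i1 was at least 170-fold higher in root. For TR32822|c129121_g1_i1 the ratio of root to leaf was 608 with a 95% Clopper-Pearson interval of 109 to 24066. Such intervals and bounds cover counting error only, and a count of 0 in leaf does not show that the transcript was missing there. Summed over the component, TR3282 had 1240 and 1433 counts in the root libraries, against 1 and 1 in leaf, a ratio of 1629 (95% interval 450 to 13455).

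**Figure D1:**
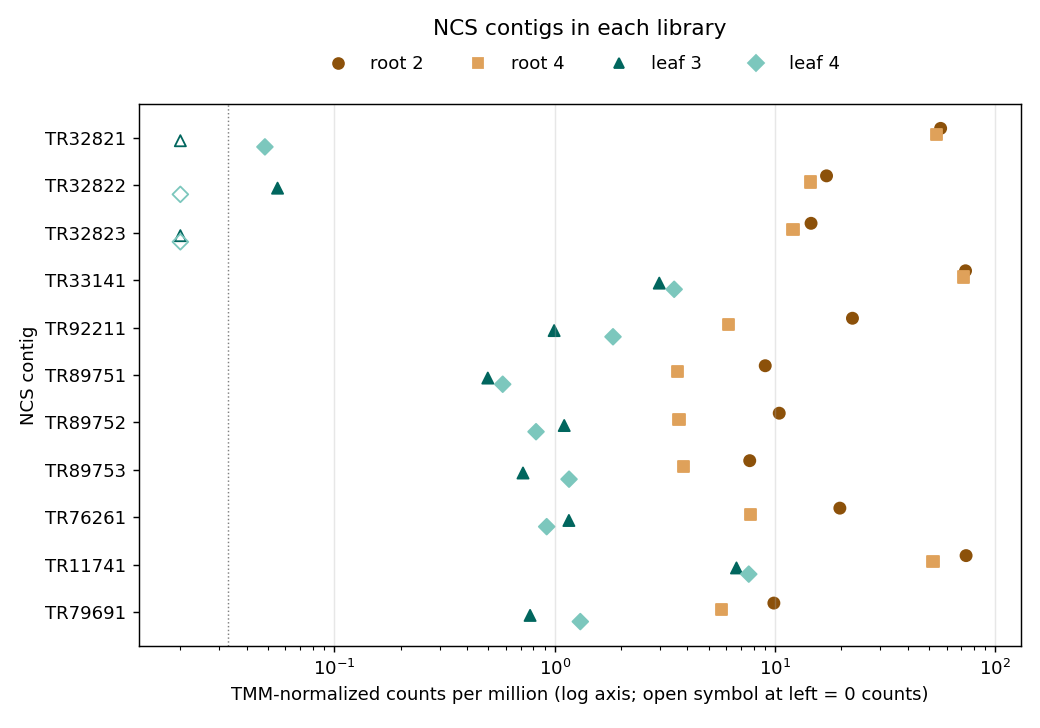
TMM-normalized CPM of the 11 *NCS* contigs (log axis) in root 2, root 4, leaf 3 and leaf 4, 1 symbol per library, with open symbols left of the dotted line for libraries with 0 counts. The 3 contigs of TR3282 have 0 or 1 count in each leaf library, the other 8 have a leaf level, and in each of the 11 both root symbols lie right of both leaf symbols.

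Among the 8 contigs with a leaf level, TR33141|c129754_g1_i1 had the highest root to leaf difference. It stood at 73.2 and 71.4 normalized CPM in root 2 and root 4, against 2.98 and 3.48 in leaf 3 and leaf 4. The root libraries lay close together here as well, and the log2 fold change of root minus leaf was 4.48 (standard error 0.29). The contig TR11741|c23152_g1_i1 stood at 73.6 and 52.1 normalized CPM in root, against 6.68 and 7.60 in leaf, which gave 3.14 for root minus leaf on the log2 scale (standard error 0.31). This contig had 121 and 157 counts in the leaf libraries, so its leaf value rests on more reads than that of TR92211 or of the TR8975 contigs. Its tissues did not overlap, although root 4 was below root 2.

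The 3 *NCS* contigs of TR8975 had low counts in leaf and a wider gap between the root libraries. TR89751|c218487_g1_i1 was at 9.02 and 3.61 normalized CPM in root 2 and root 4, against 0.497 and 0.581 in the leaf libraries. TR89752|c218488_g1_i1 was at 10.4 and 3.66 in root, against 1.10 and 0.823 in leaf. TR89753|c218489_g1_i1 was at 7.67 and 3.83 in root, against 0.718 and 1.16 in leaf. In all 3 root 2 lay well above root 4, and both were above both leaf libraries. Root minus leaf on the log2 scale was 3.52 for TR89751 (standard error 0.60), 2.86 for TR89752 (0.61) and 2.59 for TR89753 (0.52). The component has 5 contigs in all. Its contig TR89754|c218490_g1_i1, which is not among the 11, ran the same way, with 7.60 and 4.45 normalized CPM in root and 0.607 and 0.532 in leaf. The remaining one, TR89755|c218491_g1_i1, had no count in root and 3 in each leaf library, too few to be tested.

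Of the other single contigs, TR92211|c221942_g1_i1 had the widest gap between root libraries. It had 316 counts in root 2 and 109 in root 4, against 18 in leaf 3 and 38 in leaf 4. In normalized CPM these were 22.5 and 6.14 in root, against 0.994 and 1.84 in leaf. The fitted log2 change was 3.32, and its standard error of 0.72 was the largest of the 11. TR76261|c199465_g1_i1 was at 19.7 and 7.72 normalized CPM in root, against 1.16 and 0.920 in leaf, a fitted log2 change of 3.71 (standard error 0.56). TR79691|c204282_g1_i1 was at 9.88 and 5.69 in root, against 0.773 and 1.31 in leaf, a fitted log2 change of 2.89 (standard error 0.48). In each of the 3 the lower root library was still above the higher leaf library.

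All 11 contigs passed the filter of over 1 CPM in at least 2 libraries, which left 47385 contigs. The contigs of TR3282 and TR89751 passed through the root libraries alone, so their entry into the test depended on their root level. Root was tested against leaf over all 47385 contigs with edgeR's quasi-likelihood test. A contig was called at an FDR under 0.001 with a fold change of at least 4, the limits of the study's methods. The study names edgeR but not which of its tests was used. A contig not called here therefore need not fail the study's own criterion. Higher in root by this rule were 3 of the 11, TR32821, TR32822 and TR33141, against 0.443% of all tested contigs. Their FDR values were 0.000879, 0.000909 and 0.000879. TR32823, with FDR 0.00114, and TR11741, with FDR 0.00178, came next and were not called by the quasi-likelihood test. The other 6 had FDR values between 0.00577 and 0.0171. At an FDR under 0.05 and the same fold, 11 of 11 were higher in root, against 10.6% of tested contigs. At an FDR under 0.001 and the same fold, the exact test of edgeR called 11 of 11, against 9.91%. DESeq2 called 11 of 11 at these limits, against 8.76%. Over all contigs and both directions, the quasi-likelihood test called 898 at these limits, the exact test 10779 and DESeq2 9066. The quasi-likelihood test was thus the strictest of these, and the number of members called depended on the test. Of these totals, that of the exact test lay closest to the number of differing transcripts that the study reports at these limits. That test called all 11. Both root libraries lay above both leaf libraries in 11 of 11, against 36.5% of tested contigs. The median log2 fold change of the 11 was 3.52, and that of all tested contigs was 0.01. The 5th to 95th percentile of all tested contigs ran from -4.64 to 4.83, a range that takes in the 8 contigs with a leaf level. The study picked these contigs on the same libraries, and its pathway search took transcripts that differed between tissues as its input, so a difference may have been a criterion. None of these counts is therefore independent evidence of the direction.

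**Figure D2:**
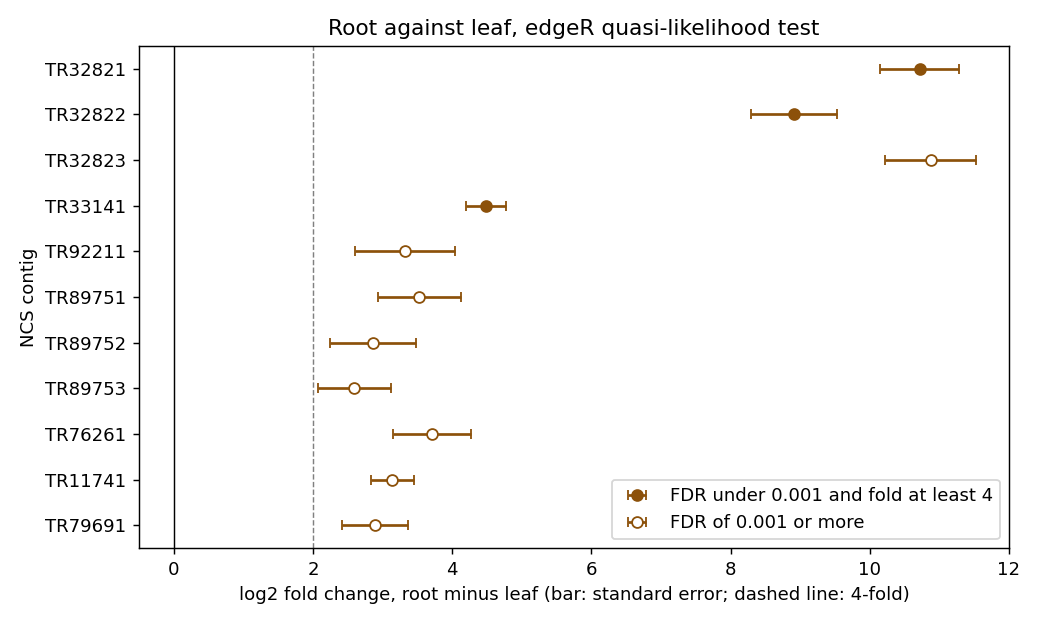
Log2 fold change of root minus leaf (points) with its standard error (bars) for the 11 *NCS* contigs from edgeR's quasi-likelihood test, with filled points for the 3 called contigs and a dashed line at 4-fold. The values of the 8 contigs with a leaf level run from 2.59 to 4.48, and those of the 3 TR3282 contigs from 8.91 to 10.88. The latter depend on the small count that edgeR adds to all libraries, which weighs most where a library has 0 or 1 count. The standard errors of TR32821 and TR32822 imply narrower ranges than the counting intervals of their ratios.

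Among the 8 contigs with a leaf level, the log2 fold changes in falling order were those of TR33141 (4.48), TR76261 (3.71), TR89751 (3.52), TR92211 (3.32), TR11741 (3.14), TR79691 (2.89), TR89752 (2.86) and TR89753 (2.59). Neighbours in this order differed by less than their standard errors, apart from TR33141 and TR76261, which had standard errors of 0.29 and 0.56. These differences between contigs were not tested. The size of several of the fold changes depended on 1 root library, while their direction did not. Without root 2, and with the same contigs tested, the log2 fold changes were 2.03 for TR92211, 2.82 for TR76261, 2.65 for TR89751, 1.86 for TR89752 and 1.94 for TR89753, and the last 2 fell short of the 4-fold limit. Without root 4 that of TR92211 was 3.96. Those of TR33141 were 4.39 without root 2 and 4.50 without root 4. Among the called contigs, TR33141 lost its call without leaf 4 (FDR 0.00151 by the quasi-likelihood test, same contigs tested), and likewise when library totals replaced TMM (FDR 0.00106). With the filter applied again, leaving out leaf 4 ended the calls of TR32821 and TR32822 too (FDR 0.00172 for both by the same test), and leaving out leaf 3 that of TR33141 (FDR 0.00323).

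Because the division of reads among similar contigs affects single contigs, all contigs of each assembly component were also summed, and 21346 components were tested in the same way. TR3282 (log2 fold change 10.44, standard error 0.37, FDR 0.000700 by the quasi-likelihood test) and TR3314 (4.42, standard error 0.25, FDR 0.000751) were called, so 2 of 7 components were higher in root, against 0.398% of all components. At an FDR under 0.05, 7 of 7 were, against 16.3%. With 1 count in each leaf library, the standard error of TR3282 implies a narrower range than the counting interval of its ratio (450 to 13455). The sum of all 5 contigs of TR8975 was 34.7 and 15.6 normalized CPM in root, against 3.09 and 3.24 in leaf. Its log2 fold change was 2.92 (standard error 0.47, FDR 0.00886 by the quasi-likelihood test). The gap between the root libraries therefore remained after summing the component. The call of TR3314 did not hold without leaf 3 or without leaf 4. The lowest log2 fold change of the 7 components was then 2.36 and 2.84, in this order.

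The *NCS* contigs were spread in how root 4 compared with root 2. The log2 ratio of root 4 over root 2, in normalized CPM, was -0.04 for TR33141, -0.06 for TR32821, -0.24 for TR32822 and -0.27 for TR32823, each with a 95% counting interval that takes in 0 under TMM scaling. For the other 7 the interval lay wholly below 0 under TMM. The ratio was -0.50 for TR11741 (95% interval -0.63 to -0.37) and -0.80 for TR79691 (-1.18 to -0.42). It was -1.00, -1.32 and -1.51 for the TR8975 contigs TR89753, TR89751 and TR89752. TR76261 stood at -1.35 and TR92211 at -1.87 (95% interval -2.20 to -1.55). Over the 44965 tested contigs with counts in both root libraries, the median of this ratio was -0.06 and its standard deviation 1.05, and 2.60% of them had a lower value than TR92211. The range from the 5th to the 95th percentile was -1.42 to 1.84, so TR92211 and TR89752 lay outside it and the other 9 inside.

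**Figure D3:**
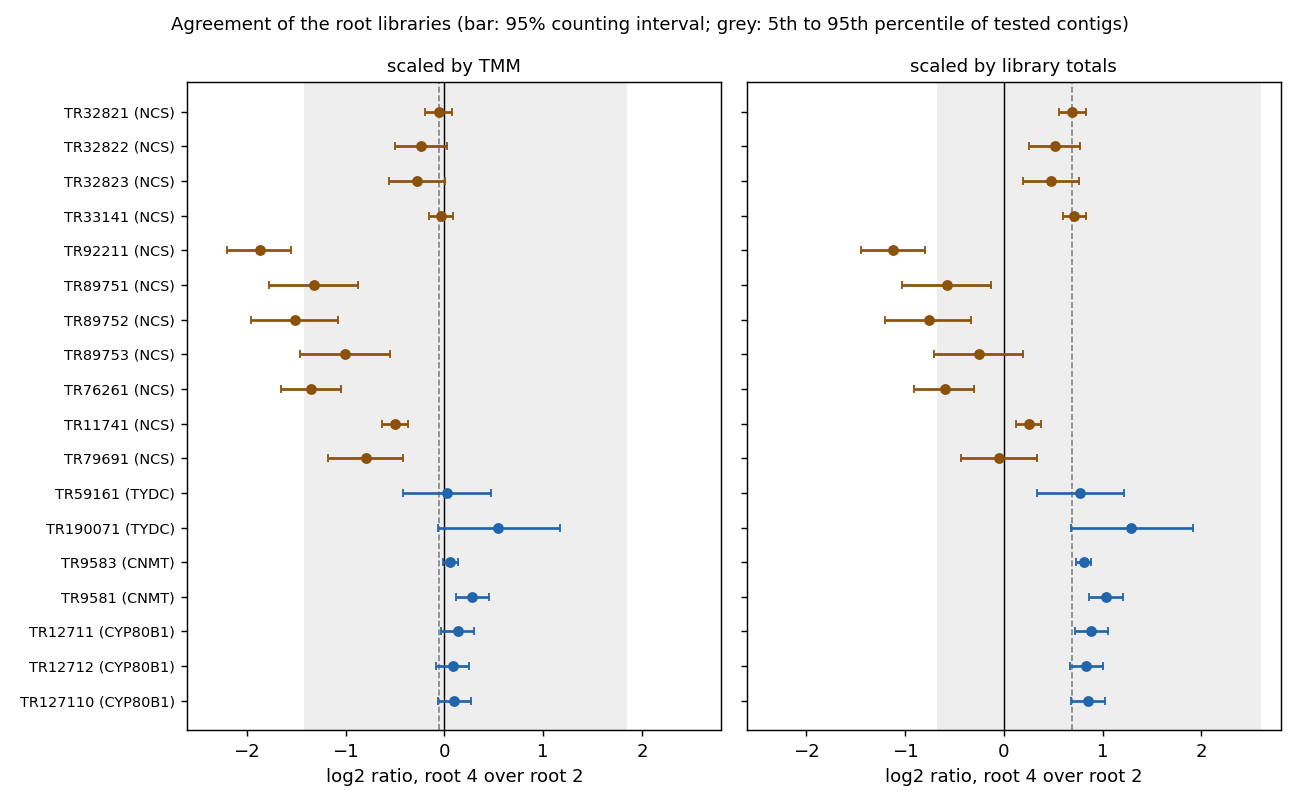
Log2 ratio of root 4 over root 2 for the 11 *NCS* contigs (brown) and the 7 contigs of *TYDC*, *CNMT* and *CYP80B1* (blue), with 95% counting intervals, scaled by TMM (left) and by library totals (right). The grey band spans the 5th to the 95th percentile of the tested contigs and the dashed line is their median. The scaling shifts all points together, and the distance of 1.83 between the highest and the lowest *NCS* contig is the same in both panels.

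The side of 0 on which a contig fell depended on the scaling. With TMM 11 of the 11 were lower in root 4, and with library totals 6 were, when the median of the tested contigs moved to 0.69. The counting interval lay wholly below 0 for 7 contigs with TMM and for 9 with DESeq2 size factors, TR32822 and TR32823 being the ones added. With library totals it lay below 0 for 4 and above 0 for 5, TR33141 and TR32821 among these. The distance between contigs does not depend on it, and ran over 1.83 on the log2 scale, from TR33141 to TR92211, under each scaling. The block c1 to c33 enters these ratios through the scaling alone, which moves all contigs alike. Whether its uneven share goes with the gaps of single contigs was not tested. In leaf the 8 contigs with counts in both libraries had log2 ratios of leaf 4 over leaf 3 between -0.42 and 0.89, and only for TR92211 did the 95% counting interval (0.04 to 1.78) leave out 0. The leaf counts behind these ratios were as low as 9, so smaller differences were not detectable at this depth.

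The make-up of the *NCS* counts was set side by side for both tissues. Of all counts given to the 11 contigs, 4420 in root 2, 4168 in root 4, 271 in leaf 3 and 367 in leaf 4, TR3282 took 28.1% and 34.4% in root, against 0.369% and 0.272% in leaf. TR3314 took 23.3% and 30.4% in root, against 19.9% and 19.6% in leaf. TR1174 took 23.4% and 22.2% in root, against 44.6% and 42.8% in leaf, the highest share in each leaf library, although a share of counts also rises with contig length. TR8975 took 8.64% and 4.73% in root, against 15.5% and 14.4% in leaf, and TR7969 took 3.14% and 2.42% in root, against 5.17% and 7.36% in leaf. The tissues overlapped for TR9221, with 7.15% and 2.62% in root, against 6.64% and 10.4% in leaf, and for TR7626, with 6.27% and 3.29% in root, against 7.75% and 5.18% in leaf. Shares need no scaling between libraries, but they add up to the whole. The near absence of TR3282 in leaf therefore raises the other shares there. Of the 8 contigs with a leaf level alone, TR11741 took 32.6% and 33.8% in root, against 44.8% and 42.9% in leaf. TR33141 took 32.4% and 46.3% of these counts in root, against 20.0% and 19.7% in leaf. The Clopper-Pearson intervals of TR1174 were 22.2% to 24.7% and 20.9% to 23.5% in root, against 38.6% to 50.8% and 37.7% to 48.0% in leaf. With 2 libraries against 2, the smallest two-sided p of an exact permutation test is 0.333, so no test was made on the shares.

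**Figure D4:**
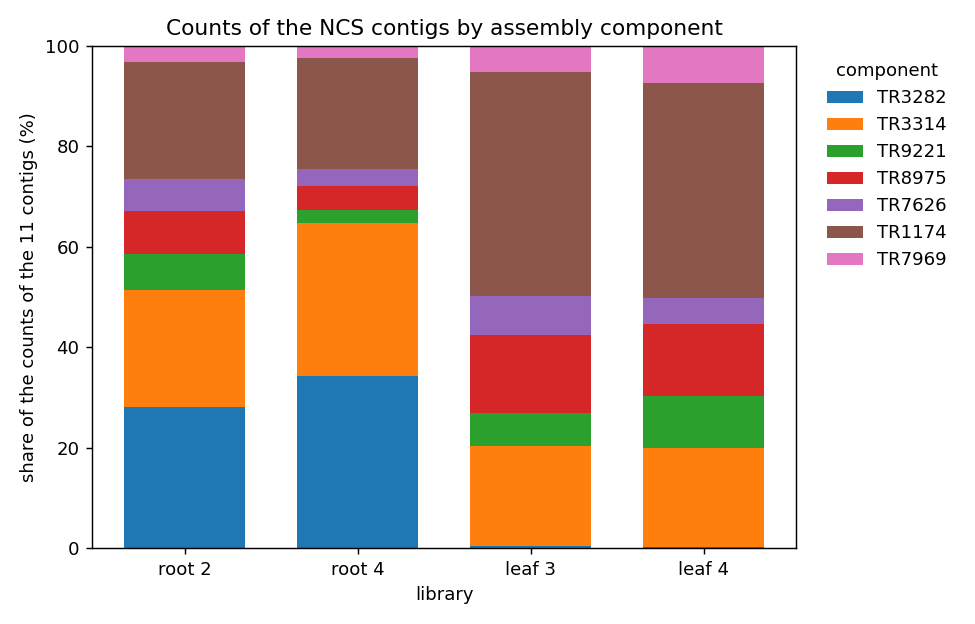
Share of the counts of the 11 *NCS* contigs (%) taken by each assembly component in root 2, root 4, leaf 3 and leaf 4, as stacked bars that sum to 100%. TR3282 takes 28.1% and 34.4% of the root bars and 0.369% and 0.272% of the leaf bars, and TR1174 takes 44.6% and 42.8% of the leaf bars.

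Within TR3282 the division among contigs was nearly the same in both root libraries. TR32821 took 64.0% of the component in root 2 (95% interval 61.3% to 66.7%) and 67.1% in root 4 (64.6% to 69.5%). TR32822 took 19.4% and 18.0%, and TR32823 took 16.5% and 14.9%. Within the 3 *NCS* contigs of TR8975, TR89751 took 33.2% and 32.5% in root, against 21.4% and 22.6% in leaf, with leaf intervals of 10.3% to 36.8% and 12.3% to 36.2% that reach the root values. Summed over the 11, the level was 314 and 235 normalized CPM in root, against 15.0 and 17.8 in leaf, and without TR3282 it was 226 and 154 in root, against 14.9 and 17.7 in leaf. The ratio of the mean levels was 16.8 for the 11 and 11.7 for the 8 contigs with a leaf level.

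The steps around norcoclaurine synthase were read from 7 contigs that the study labels *TYDC* (2), *CNMT* (the 2 with the most counts) and *CYP80B1* (3). The 2 *CNMT* contigs are of component TR958 and the 3 *CYP80B1* contigs of TR1271, so the 7 are not separate observations. None of the 7 was called in either direction by the quasi-likelihood test (FDR 0.00143 to 0.0266), against 898 of all 47385 tested contigs. By the exact test of edgeR their FDR values ran from 1.10e-15 to 0.000715. By DESeq2 they ran from 2.23e-11 to 0.00590, with only TR190071 above 0.001. At an FDR under 0.05 with at least 4-fold, by the quasi-likelihood test, 7 were higher in root and 0 higher in leaf, against 10.6% of all tested contigs higher in root. Other contigs labelled *CNMT*, some of them higher in leaf, are not in this count. The log2 fold changes of the 7 ran from 2.02 to 6.04 with a median of 2.09. The *TYDC* contig TR59161|c174098_g1_i1 was at 5.54 and 5.64 normalized CPM in root, against 0.110 and 0.0484 in leaf, and like TR3282 it had next to no counts in leaf. The other *TYDC* contig, TR190071|c90970_g1_i1, had 36 and 66 counts in root, against 2 in leaf 3 and 13 in leaf 4. Its log2 fold change was 3.03. The *CNMT* contig with the most counts, TR9583|c227042_g1_i1, was at 177 and 185 in root, against 40.0 and 45.2 in leaf. The *CYP80B1* contig TR12711|c35113_g1_i1 was at 36.2 and 39.8 in root, against 8.17 and 10.1 in leaf. The log2 ratios of root 4 over root 2 of the 7 contigs lay between 0.02 and 0.54, above the ratio of each of the 11 *NCS* contigs, a comparison that the scaling does not touch and that was not tested. Some counting intervals overlapped, such as -0.42 to 0.47 for TR59161 and -0.16 to 0.08 for TR33141 under TMM.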

How the data were processed

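The deposited values are expected counts per contig, which the authors obtained with RSEM from Bowtie alignments to their BinPacker assembly. RSEM and edgeR are named in the submitters' processing notes, with no version given in the sources used here. Each of these estimated counts was a whole number, so rounding changed nothing. The filter required over 1 CPM in 2 libraries or more. Library sizes were then recomputed, TMM scaling was applied and the tissues were compared by the quasi-likelihood F test of edgeR 4.0.16 (R 4.3.3) with tissue as the only term and Benjamini-Hochberg adjustment over all tested contigs. Each standard error was taken as the fitted log2 change over the square root of its F value. Components were read from the numbering of the identifiers. Intervals of shares and ratios are Clopper-Pearson at 95%. Tried as alternatives were the exact test of edgeR, DESeq2 1.42.0, limma-voom (limma 3.58.1), other scalings, filters and thresholds, and each library left out. Depth was 15281682 to 19781065 counts per library. The scripts were tested on simulated data. Named are the 11 contigs, other contigs of their components, 7 contigs of neighbouring steps, and the 2 contigs nearest in profile to TR3282. The members, lists and tests were chosen with earlier results of these data known. Contig sequences were not used here. Other software was scipy 1.17.1, numpy 2.4.6, pandas 2.3.3 and matplotlib 3.10.9 under Python 3.11.15.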

Additional observations from a re-analysis of the deposited data

How the results depend on the processing

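The estimate was higher in root for each of the 11 contigs under every alternative in which it was tested, with no reversal. Of the *NCS* contigs, 3 were called, and 11 were called by edgeR's exact test, by DESeq2, with no filter, and at an FDR under 0.05. At an FDR under 0.01 the number was 8, and with over 5 CPM in 2 libraries it was 5 of the 8 tested. Over all contigs, 3406, 542 and 7594 were higher in root at an FDR under 0.01, over 5 CPM and with no filter. DESeq2 size factors gave 3 (254 of all contigs), leaving out c1 to c33 gave 3 (235), limma-voom 4 (862) and library totals 2 (255). Library totals moved the median log2 fold change of all contigs by -0.10. Leaving out 1 library gave between 0 and 11 calls. The 0 came without leaf 4 with the filter applied again (quasi-likelihood test), where all 11 had an unadjusted p under 0.05 and no contig of the table was called. With the tested contigs kept, 3 were called without leaf 4, 5 without leaf 3, 9 without root 2 and 11 without root 4, while 506, 2343, 3992 and 5617 of all contigs were called higher in root, so the members' number moved with that of all contigs (210 in the test as reported). With the filter applied again and a root library left out, TR3282 and TR89751 were not tested. A lone library of a tissue is taken to vary like the other tissue. Of the components, 2 were called, while 85 of all components were called higher in root. DESeq2 called 7 (2808 of all), the exact test 7 (3202), and an FDR under 0.05 gave 7 (3474). The number was 6 with no filter (3684 of all) and 1, TR3282, with library totals (123). With 1 library left out and the filter applied again, the lowest log2 fold change of a tested component was 2.06, without root 2. The number lower in root 4 than in root 2 was 11, and 6 with library totals. The causes were not tested. No paired analysis was possible because the tissues share only 1 replicate number, 4. Between 0 and 157 counts in leaf limit the precision of the fold changes.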

Other observations

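The contigs whose levels over the 4 libraries lay nearest to the sum of TR3282, by Euclidean distance of log2(normalized CPM + 0.5), were TR21531|c99034_g1_i1 (distance 0.37) and TR43311|c148204_g1_i1 (distance 0.42). TR21531|c99034_g1_i1 had 1024 and 1651 counts in root 2 and root 4, against 1 and 0 in leaf 3 and leaf 4. TR43311|c148204_g1_i1 had 1518 and 1672 counts in root, against 0 in leaf. Taking 3 counts over both leaf libraries for that 0, it was at least 1296-fold higher in root. No gene name was at hand for either contig. The distance depends on the level, which is not divided by contig length, and rests on 4 libraries of 2 tissues.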
